A study of Mus musculus with 6 samples.

Results

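The genes described here are 10 genes of NF-κB signaling in mouse islets, namely *Card14*, the NF-κB subunit genes *Nfkb1*, *Nfkb2*, *Rela* and *Relb*, and the inhibitor and feedback genes *Nfkbia*, *Nfkbie*, *Nfkbiz*, *Tnfaip3* and *Birc3*. They were taken by gene symbol from the deposited count table, in which they are 10 of 40914 genes with counts, and the group was picked because *Card14* was strongly higher in *Akita* than in WT islets. *Card14* was thus chosen by the same contrast that is described below, and its genotype difference is given as a description without a test. The other 9 genes were fitted together with all 15407 genes that passed a filter on low counts. All 10 genes passed this filter in every library, the lowest count among them being 34.

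RNA was sequenced from islets of WT mice and of heterozygous *Akita* mice, which carry the *Ins2*(WT/C96Y) allele, both aged 19 to 21 days. By the study's methods the *Akita* line was on a C57BL/6J background, and males of it were used. The *Akita* mutation replaces a cysteine of proinsulin 2, so that the prohormone misfolds in the endoplasmic reticulum (ER) of β-cells, and the study compared the genotypes before the mice became diabetic. Each genotype had 3 libraries, and each library held the pooled islets of 3 mice, cultured overnight after collagenase isolation in medium with 11.1 mmol/l glucose and 10% serum. The labels name no other allele and no treatment in either genotype. The WT pools are called WT1, WT2 and WT3 and the *Akita* pools AK4, AK5 and AK6, the names of their columns in the deposited table. A sample is here a pool, so that single mice cannot be compared.

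NF-κB transcription factors are dimers of Rel proteins that are held in the cytoplasm by IκB proteins until IκB kinase (IKK) phosphorylates the inhibitor and marks it for degradation. CARD14 is a scaffold protein of the CARMA family that assembles with BCL10 and MALT1 to activate IKK, and it is known mainly from the human and mouse epidermis, where activating mutations cause inflammatory skin disease. Several NF-κB target genes encode inhibitors of the pathway, among them IκBα (*Nfkbia*) and the ubiquitin-editing enzyme A20 (*Tnfaip3*), so that their mRNA levels follow the activity of the pathway in many cell types. In β-cells this pathway is best known from the response to inflammatory cytokines.

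Promoters of NF-κB target genes commonly contain κB sites, the DNA elements bound by NF-κB dimers. The 250 bases before a gene start are printed for 3 of the 4 members with a match to the κB consensus, to show the matching letters, in lower case from 5′ to 3′ of the gene's strand, with every match on either strand in capitals. The sequences are from RefSeq on GRCm38.p6, at chr12:55492648-55492897 on the minus strand for *Nfkbia*, chr19:46304487-46304736 on the plus strand for *Nfkb2* and chr10:19015411-19015660 on the minus strand for *Tnfaip3*.
Nfkbia: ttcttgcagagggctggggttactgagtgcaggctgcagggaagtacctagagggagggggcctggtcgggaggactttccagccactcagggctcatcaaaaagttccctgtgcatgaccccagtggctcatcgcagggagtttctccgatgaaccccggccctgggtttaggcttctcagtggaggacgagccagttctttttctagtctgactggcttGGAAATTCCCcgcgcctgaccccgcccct
Nfkb2: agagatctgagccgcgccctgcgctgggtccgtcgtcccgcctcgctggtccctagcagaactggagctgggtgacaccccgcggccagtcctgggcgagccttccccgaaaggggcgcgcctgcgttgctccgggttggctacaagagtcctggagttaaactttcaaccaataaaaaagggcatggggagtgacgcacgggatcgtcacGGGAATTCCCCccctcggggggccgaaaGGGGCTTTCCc
Tnfaip3: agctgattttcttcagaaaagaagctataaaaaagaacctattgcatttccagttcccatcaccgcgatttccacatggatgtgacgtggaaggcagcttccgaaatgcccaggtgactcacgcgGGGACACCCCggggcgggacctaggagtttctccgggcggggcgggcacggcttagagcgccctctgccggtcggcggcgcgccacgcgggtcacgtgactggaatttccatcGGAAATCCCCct

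The *Nfkbia* stretch has 1 match, GGAAATTCCC, which starts 29 bases before the gene start. In *Nfkb2* the matches GGGAATTCCC and GGAATTCCCC overlap by all but 1 base, so that they are printed as a single run of capitals, and GGGGCTTTCC lies 11 bases before the start. *Tnfaip3* has GGGACACCCC at 125 bases and GGAAATCCCC at 12 bases before the start. Windows of 300 bases, 250 before and 50 after the start, were given for 6 of the 10 genes, some with several starts. Of these 9 windows 6 held a match, namely those of *Nfkbia*, *Nfkbie* and *Nfkb2* and 1 window of *Tnfaip3*, while another *Tnfaip3* window and those of *Rela* and *Birc3* held none. The last 2 of the *Nfkb2* windows overlap and share a match. Of all 32851 windows of this length, 8.46% held at least 1 match. These matches describe the letters of the windows and were not measured as bound sites.

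*Card14* (ENSMUSG00000013483, GRCm38 chromosome 11, 119307768 to 119345375, plus strand) was the lowest of the 10 genes in WT islets and about 6 times higher in *Akita* islets. Its read counts were 58, 47 and 34 in WT1, WT2 and WT3 and 322, 293 and 319 in AK4, AK5 and AK6. As CPM, the count relative to each library’s total scaled to a common size and adjusted between libraries by trimmed means of log ratios (TMM), the levels were 2.17, 1.94 and 1.64 in the WT pools and 11.6, 10.7 and 12.7 in the *Akita* pools. Every *Akita* pool was thus far above every WT pool, and pools of the same genotype lay close together, with the highest 1.32 times the lowest in WT and 1.18 times in *Akita*. The means were 1.92 ± 0.263 CPM in WT and 11.7 ± 0.983 CPM in *Akita* (SD, n = 3 pools each), a ratio of 6.09. The fitted log2 fold change of *Akita* over WT was 2.59 with a standard error (SE) of 0.19, the twelfth highest among the genes tested. It was 2.49 to 2.68 when any single library was left out.

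**Figure D1:**
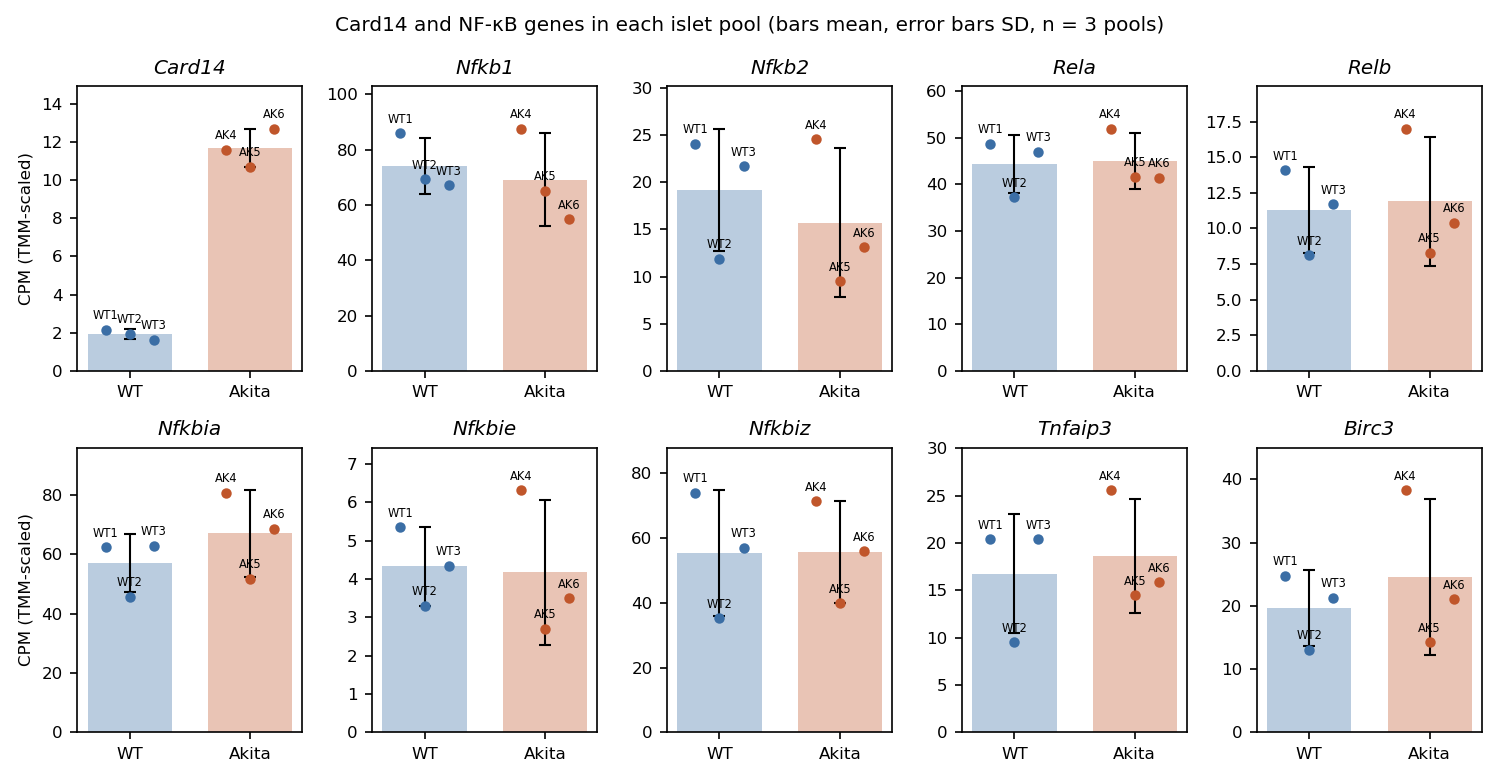
Level of each of the 10 genes in each islet pool, as TMM-scaled CPM on the vertical axis, which starts at 0 and differs in scale between panels. Points are pools, bars the mean and error bars the SD of 3 pools. *Card14* has all 3 *Akita* pools between 10.7 and 12.7 CPM and all WT pools at or below 2.17 CPM, while in the other 9 genes the genotypes overlap.

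The 3′ end of *Card14* overlaps *Sgsh*, the gene of the lysosomal enzyme sulfamidase, on the opposite strand. In the GENCODE annotation of GRCm38 they share 955 exonic bases, 20.7% of the exonic bases of *Card14* and 21.6% of those of *Sgsh*. The libraries did not mark the strand, so that reads of the shared bases cannot be assigned to either gene by strand. *Sgsh* measured 7.74, 10.2 and 11.8 CPM in WT1, WT2 and WT3 and 9.17, 9.42 and 8.04 CPM in AK4, AK5 and AK6. Its genotypes overlapped, and its log2 fold change of -0.11 (SE 0.18) did not pass the test (adjusted p = 0.785, limma-voom with Benjamini–Hochberg adjustment over all genes tested). Neither of the other neighbors passed it: *Eif4a3*, a helicase of the exon junction complex upstream of *Card14*, had a log2 fold change of 0.06 (adjusted p = 0.772), and *Slc26a11*, an anion transporter gene beyond *Sgsh*, one of -0.38 (adjusted p = 0.611).

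Since CARD14 is known from keratinocytes, the markers of this cell type were examined in the same libraries. The sum over 8 keratinocyte markers was 9.91 to 11.0 CPM in WT and 9.39 to 13.0 CPM in *Akita* pools, and 3 of the 8 passed the filter. These were *Krt10*, *Krt1* and *Lor*. *Krt1* had 49 to 55 reads in WT and 44 to 96 reads in *Akita* pools, and *Lor* had 20 to 28 and 28 to 41 reads. The basal keratins and the stratified epithelium factor were at or near 0, with at most 1 read of *Krt5*, 3 reads of *Krt14* and 1 read of *Trp63* in any library. *Krt10*, which is not restricted to the epidermis, had 151 to 188 reads in WT and 167 to 217 reads in *Akita* pools, against 34 to 58 and 293 to 322 reads of *Card14*. The part of keratinocytes in the level of *Card14* was not tested.

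Among the genes compared, the profile of *Card14* over the 6 libraries was most like those of *Derl3*, *Lmo1*, *Dnah9*, *Gdf15* and *Slc2a6*. Likeness was the Euclidean distance between log2(CPM + 0.5) profiles after subtraction of each gene's mean, over the 12693 named genes with a mean of at least 1 CPM, and the distances ran from 0.657 for *Derl3* to 0.84 for *Slc2a6*. *Derl3*, a component of ER-associated degradation induced by the unfolded protein response, was at 34.0, 29.2 and 41.9 CPM in WT and 159, 121 and 175 CPM in *Akita* pools. *Gdf15*, a stress-induced member of the TGF-β superfamily, was at 9.13, 9.83 and 10.3 CPM in WT and 43.1, 30.6 and 33.5 CPM in *Akita* pools. *Lmo1*, a LIM-domain transcriptional cofactor, was at 4.11 to 6.84 CPM in WT and 18.9 to 21.1 CPM in *Akita*. All of these genes had all *Akita* pools above all WT pools, and they were chosen for their likeness to *Card14*, so that no test is attached. The distance depends mainly on the genotype difference by which *Card14* was picked, and shared regulation was not tested. *Dnah9* encodes an axonemal dynein heavy chain and *Slc2a6* a hexose transporter, and their mean levels were 10.8 and 11.4 CPM in WT against 48.0 and 52.0 CPM in *Akita*.

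The genes of the 4 NF-κB subunits did not differ between genotypes beyond the spread of the pools. *Rela*, which encodes p65, the main activating subunit of the canonical pathway, measured 48.7, 37.2 and 47.0 CPM in WT1, WT2 and WT3 and 51.9, 41.6 and 41.4 CPM in AK4, AK5 and AK6. AK4 was the highest and WT2 the lowest pool, and the genotypes overlapped. The log2 fold change was 0.02 (SE 0.14, adjusted p = 0.949) with a 95% interval of -0.30 to 0.35, the narrowest of the 9 genes.

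*Nfkb1*, the gene of p105 and its product p50, measured 85.9, 69.3 and 67.2 CPM in WT1, WT2 and WT3 and 87.6, 65.2 and 54.8 CPM in AK4, AK5 and AK6. The lowest and the highest value both came from *Akita* pools. The log2 fold change was -0.12 (SE 0.18, adjusted p = 0.777), with an interval of -0.55 to 0.31.

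The subunits of the non-canonical pathway varied more between pools. *Nfkb2*, the gene of p100 and its product p52, measured 24.1, 11.9 and 21.7 CPM in WT1, WT2 and WT3 and 24.6, 9.49 and 13.1 CPM in AK4, AK5 and AK6, so that AK4 was 2.59 times as high as AK5. Both genotypes spanned nearly the same range. The log2 fold change was -0.34 (SE 0.40, adjusted p = 0.706) and its interval of -1.28 to 0.61 was the widest. Opposite-strand exons of *Psd* and of AC114539.1 cover 6.52% and 11.6% of the exonic bases of *Nfkb2*. How reads of such shared bases were counted is not known here. The count of *Nfkb2* may thus include reads of these genes or lack some of its own. *Relb*, whose product pairs with p52, measured 14.1, 8.13 and 11.7 CPM in WT1, WT2 and WT3 and 17.0, 8.28 and 10.4 CPM in AK4, AK5 and AK6. WT2 and AK5 were nearly equal at the low end, AK4 and WT1 were the highest, and the log2 fold change was 0.04 (SE 0.31, adjusted p = 0.961).

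The 5 inhibitor and feedback genes, which are themselves NF-κB targets, likewise did not pass the test. *Nfkbia*, the gene of IκBα, measured 62.4, 45.7 and 62.8 CPM in WT1, WT2 and WT3 and 80.7, 51.7 and 68.5 CPM in AK4, AK5 and AK6. AK4 and AK6 were above every WT pool, but AK5 was below WT1 and WT3. The log2 fold change was 0.23 (SE 0.19, interval -0.23 to 0.68) with an adjusted p of 0.59, the lowest of the 9 genes. Its unadjusted p of 0.281 was also the lowest, so that none of the 9 was under 0.05 before adjustment.

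*Nfkbie*, the gene of IκBε and the least abundant of the inhibitors, measured 5.35, 3.30 and 4.35 CPM in WT1, WT2 and WT3 and 6.32, 2.71 and 3.5 CPM in AK4, AK5 and AK6. The *Akita* pools included both the highest and the lowest value (log2 fold change -0.12, SE 0.35, adjusted p = 0.892). *Nfkbiz* encodes IκBζ, an inducible nuclear protein that regulates a subset of NF-κB targets and is also known from the skin. It measured 73.8, 35.2 and 56.9 CPM in WT1, WT2 and WT3 and 71.3, 39.8 and 55.8 CPM in AK4, AK5 and AK6. The means of 55.3 ± 19.3 and 55.7 ± 15.7 CPM (SD, n = 3) were nearly equal, and the log2 fold change was 0.03 (SE 0.31, adjusted p = 0.971).

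*Tnfaip3*, the gene of A20, measured 20.4, 9.54 and 20.4 CPM in WT1, WT2 and WT3 and 25.6, 14.5 and 15.9 CPM in AK4, AK5 and AK6. AK4 was the highest pool, while AK5 and AK6 lay between WT2 and the other WT pools (log2 fold change 0.20, SE 0.34, adjusted p = 0.803). *Birc3*, which encodes the ubiquitin ligase cIAP2, measured 24.8, 13.1 and 21.3 CPM in WT1, WT2 and WT3 and 38.3, 14.3 and 21.1 CPM in AK4, AK5 and AK6. AK4 was above all others and AK5 near WT2, and the log2 fold change of 0.25 (SE 0.40, adjusted p = 0.791) was -0.14 without AK4 and 0.58 without AK5.

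Of the 9 genes 0 passed the threshold of an adjusted p under 0.05, against 1.62% of all genes tested by limma-voom, where 117 genes were higher and 132 lower in *Akita*. With scaling by library totals alone these were 450 higher and 119 lower. The log2 fold changes of the 9 genes ran from -0.34 to 0.25 with a median of 0.03, 6 above and 3 below 0, and the median over all genes tested was 0.00. In 0 of the 9 were the genotypes free of overlap, while 25.3% of all genes tested had no overlap. The intervals of the 9 genes reached from -1.28 to 1.18 on the log2 scale. They were widest in *Nfkb2*, which reached the lower end, and in *Birc3*, which reached the upper end.

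**Figure D2:**
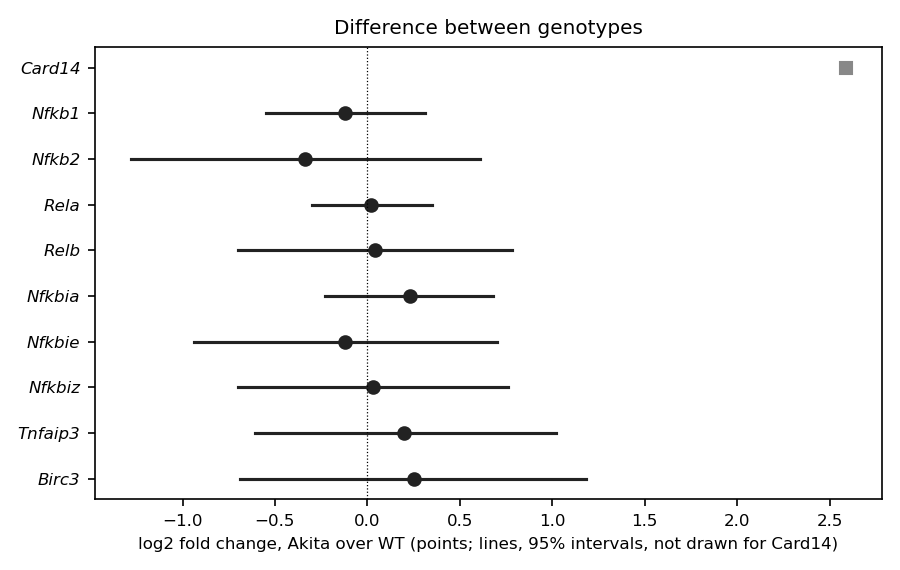
Log2 fold change of *Akita* over WT for the 10 genes on the horizontal axis (n = 3 pools per genotype). Circles are the fitted values of the 9 tested genes with lines for the 95% intervals, and the gray square is *Card14*, which has no interval since it was selected on this value. The 9 circles lie between -0.34 and 0.25 and each line crosses 0, while *Card14* lies at 2.59.

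Per kilobase (kb) of annotated exons, the levels of the 10 genes spanned a wide range. In WT islets *Nfkbia* was the most abundant, at 35.4 ± 6.06 CPM per kb (SD, n = 3 pools). *Rela* followed at 14.4 ± 2.02 and *Nfkbiz* at 11.0 ± 3.85 CPM per kb, and these did not differ beyond their SDs. *Nfkb1* (6.15 ± 0.846), *Nfkb2* (4.20 ± 1.41), *Birc3* (3.94 ± 1.20), *Relb* (2.91 ± 0.768), *Tnfaip3* (2.32 ± 0.868) and *Nfkbie* (1.42 ± 0.336 CPM per kb) formed a series in which each gene overlapped the next within its SD. *Card14* was below all of them at 0.417 ± 0.0571 CPM per kb. In *Akita* islets *Card14* reached 2.54 ± 0.213 CPM per kb, above *Nfkbie* (1.37 ± 0.623) and within the SD of *Tnfaip3* (2.59 ± 0.839). *Nfkbia* was at 41.6 ± 9.04 CPM per kb. The exon lengths are those of GENCODE, since the release used for the counting is not known here. They include the bases that *Card14* and *Nfkb2* share with other genes, whose reads may have been left uncounted.

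The 9 genes varied between pools of the same genotype in a shared order. *Nfkb1*, *Nfkb2*, *Rela*, *Relb*, *Nfkbie*, *Nfkbiz* and *Birc3*, 7 of the 9, were highest in WT1 among the WT pools and in AK4 among the *Akita* pools, which held for 18.3% of all genes tested. *Nfkb2*, *Relb*, *Nfkbie*, *Nfkbiz* and *Birc3* were in addition lowest in WT2 and AK5, so that 5 of the 9 had all 4 extremes in these pools, against 5.57% of all genes tested. This pattern was noticed after the values were seen and carries no test. *Nfkbia* and *Tnfaip3* were as high in WT3 as in WT1, and *Nfkb1* was lowest in WT3 and AK6. *Card14* did not have this order, as AK6 was its highest and WT3 its lowest pool.

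Other cell types that islet isolates can hold differed between the same pools. The summed level of 13 acinar markers was 5400, 336 and 6220 CPM in WT1, WT2 and WT3 and 6770, 296 and 1250 CPM in AK4, AK5 and AK6. WT2 and AK5, the lowest pools of most feedback genes, were thus also the lowest in acinar transcripts. The sum of 9 lymphocyte markers was 19.5, 5.29 and 8.37 CPM in the WT pools and 67.3, 5.05 and 5.69 CPM in the *Akita* pools. AK4 stood out, with the B-cell gene *Cd79a* at 10.7 CPM against at most 1.80 CPM in any other pool. T-cell genes were lower but also highest in AK4, where *Cd3e* had 33 reads against at most 8 in any other pool and *Cd4* had 110 against at most 37. The sum of 12 macrophage markers was 285, 179 and 168 CPM in WT1, WT2 and WT3 and 197, 92.2 and 139 CPM in AK4, AK5 and AK6, again highest in WT1 and AK4. The sum of 9 mesenchyme markers was 611, 78.9 and 122 CPM in the WT pools and 329, 194 and 221 CPM in the *Akita* pools. WT1 and AK4 were its highest pools and WT2 and AK5 its lowest. The sum of 7 ductal markers was 1310, 573 and 755 CPM in the WT pools and 599, 505 and 486 CPM in the *Akita* pools. That of 9 endothelium markers was highest in WT2 and AK4, at 316 and 301 CPM. None of these markers passed the test between genotypes, although several sets lay mostly on 1 side of 0. All 11 tested macrophage markers (median log2 fold change -0.62) and all 7 ductal markers (median -0.27) were below 0. So were 12 of 13 acinar markers (median -0.75) and 7 of 9 endothelium markers (median -0.11). Above 0 were 8 of 9 mesenchyme markers (median 0.38) and 4 of the 5 tested lymphocyte markers (median 0.61). The part of these cells in the levels of the 9 genes was not tested within the genotypes. In bulk islets, fewer cells of a type and less RNA per cell cannot be told apart.

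**Figure D3:**
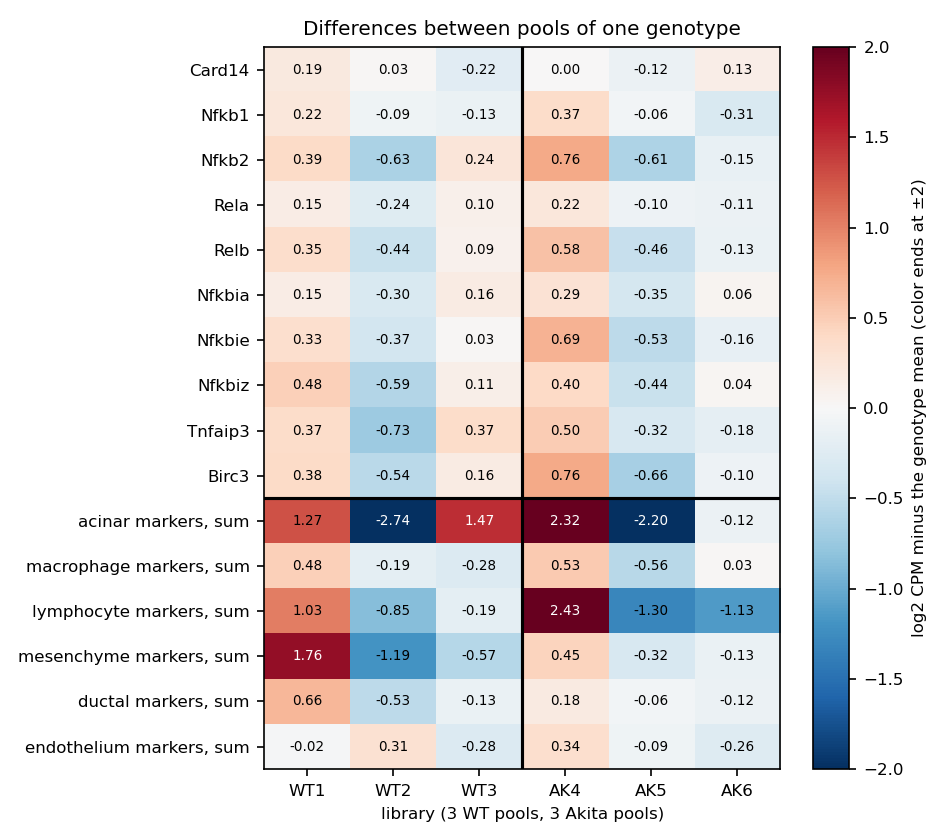
Deviation of each pool from the mean of its genotype, as log2 CPM, for the 10 genes (upper rows) and for the summed markers of other cell types (lower rows). Columns are the 6 libraries and the number in each cell is its deviation, with the color scale ending at 2 in either direction. *Birc3* deviates by 0.38 in WT1, -0.54 in WT2, 0.76 in AK4 and -0.66 in AK5, and the acinar sum by 1.27, -2.74, 2.32 and -2.20 in the same pools, while *Card14* stays within 0.22 of its genotype mean.

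With the level of acinar markers added to the fit as a covariate, a setting chosen after the data were seen, the SE of *Birc3* fell from 0.40 to 0.14 and that of *Nfkb2* from 0.40 to 0.13. The log2 fold changes in this fit were 0.48 for *Birc3* (adjusted p = 0.137), 0.32 for *Nfkbia* (adjusted p = 0.0979), 0.32 for *Tnfaip3* (adjusted p = 0.236) and -0.11 for *Nfkb2* (adjusted p = 0.695). *Relb* was at 0.21 (adjusted p = 0.492), *Nfkbiz* at 0.16 (adjusted p = 0.52), *Rela* at 0.08 (adjusted p = 0.663) and *Nfkb1* at -0.07 (adjusted p = 0.856), and *Nfkbie* turned from -0.12 to 0.07 (adjusted p = 0.89), so that none of the 9 genes passed the threshold there either. *Card14* was at 2.60 in this fit. *Birc3*, *Nfkb2* and the acinar sum were all lowest in WT2 and AK5 within their genotypes. The lower SEs are therefore no test of the part of acinar cells, and no other cell type was tried as a covariate.

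Depth and purity of the 6 libraries bear on these values as follows. The libraries held 22069554 to 27043169 counted reads. The summed level of 8 β-cell markers was 220000 to 242000 CPM in WT and 130000 to 155000 CPM in *Akita* pools, with 3 of the 8 markers lower in *Akita*. The α-cell markers summed to 27100 to 42200 CPM in WT and 39100 to 61000 CPM in *Akita* pools, so that the hormone genes of the labelled tissue were abundant in every library.

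Other genes of the pathway were examined in lists by role, of which 79 of 87 genes passed the filter. None passed the threshold of the genotype test by limma-voom, against 1.62% of all genes tested. Of the log2 fold changes 38 were above and 40 below 0, with a median of -0.01, beside 0.00 for all genes tested. Before adjustment 7 were higher and 5 lower at p under 0.05 by limma-voom, against 18.7% of all genes tested. The genotypes did not overlap in 12 of the 79, against 25.3% of all genes tested. Whether these counts differ from the shares over all genes was not tested. The lists were written with earlier results of these data known.

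None of the genes for partners of CARD14 in signal transduction passed the genotype test. Of 17 genes of the CARMA-BCL10-MALT1 signalosome, 15 were tested, with a median log2 fold change of -0.02 (range -0.52 to 0.34). *Bcl10*, the adaptor bound by CARMA proteins, measured 31.5, 30.4 and 26.3 CPM in WT and 34.3, 29.1 and 29.3 CPM in *Akita* pools, and its genotypes overlapped (log2 fold change 0.07, adjusted p = 0.794). *Malt1*, the gene of the paracaspase, measured 18.6, 16.5 and 17.6 CPM in WT and 22.5, 18.4 and 17.4 CPM in *Akita* pools (log2 fold change 0.14, adjusted p = 0.61). Among the paralogs of *Card14*, *Card10* had a log2 fold change of -0.26 and *Card9* one of 0.34, and neither passed the threshold. *Bcl10*, *Malt1*, *Card9* and *Card10* are named for their roles, with their values known. The most abundant members were *Prkca*, *Map3k7*, *Tab2* and *Traf6*, kinases and adaptors of the pathway, with log2 fold changes of -0.08 to 0.03. *Prkcb*, the gene of protein kinase C β, had the lowest value, at 72.3, 81.8 and 86.2 CPM in WT and 43.1, 56.9 and 70.5 CPM in *Akita* pools. Its genotypes did not overlap, but its log2 fold change of -0.52 (SE 0.17) did not pass the test (adjusted p = 0.181).

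All 11 listed genes of the IKK complex, its upstream NIK branch, IKK-related kinases and TNF receptor signaling were tested. Their median log2 fold change was -0.02, with a range of -0.24 to 0.22. *Chuk*, which encodes IKKα, was at -0.03, and *Ikbkg*, the gene of the regulatory subunit NEMO, at 0.19 (adjusted p = 0.224). *Traf3*, which holds NIK at low levels, measured 90.6, 87.5 and 91.6 CPM in WT and 113, 96.9 and 105 CPM in *Akita* pools. These did not overlap, with a log2 fold change of 0.22 (adjusted p = 0.194). *Birc2*, the paralog of *Birc3*, was at 0.15 (adjusted p = 0.357).

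Among 7 other Rel and IκB genes the median log2 fold change was 0.03 (range -0.10 to 0.32). *Nkiras2*, an IκB-interacting Ras-like protein and the most abundant of them, measured 45.1, 44.6 and 46.3 CPM in WT and 49.3, 61.3 and 54.4 CPM in *Akita* pools, without overlap (log2 fold change 0.27, adjusted p = 0.193). *Nkiras1* was at -0.03, *Nfkbib* (IκBβ) at -0.10 and *Bcl3*, a nuclear IκB protein, at 0.27 (adjusted p = 0.612). *Rel*, the gene of the NF-κB subunit c-Rel, is named for its role, with its values known. It measured 14.6, 9.29 and 10.7 CPM in WT and 19.0, 11.3 and 13.7 CPM in *Akita* pools. Its genotypes overlapped, and its log2 fold change of 0.32 was the highest of this list (SE 0.25, limma-voom adjusted p = 0.531). Among 12 tested genes of other feedback proteins and deubiquitinases the median was 0.08 (range -0.80 to 0.65). The deubiquitinase gene *Cyld*, a negative regulator of IKK, measured 93.1, 97.0 and 88.1 CPM in WT and 106, 106 and 104 CPM in *Akita* pools. The groups did not overlap (log2 fold change 0.19, adjusted p = 0.2). *Tax1bp1*, *Rnf11* and *Itch*, which encode partners of A20, were at 0.10, 0.05 and -0.01.

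Cytokine and chemokine target genes were low and uneven between pools. Of 21 genes 17 were tested, with a median log2 fold change of -0.18 and a range of -2.17 to 0.48. Of the 17, 14 were highest in WT1 and AK4 within their genotypes, against 18.3% of all genes tested. This order was noticed after the values were seen and carries no test. *Lcn2*, the gene of lipocalin 2, measured 29.1, 2.85 and 11.3 CPM in WT and 44.7, 1.91 and 7.96 CPM in *Akita* pools. *Cxcl1*, a neutrophil chemokine gene, had the same order in *Akita*, at 40.8, 0.989 and 5.77 CPM, and measured 11.9, 0.784 and 11.0 CPM in WT. Both had their lowest level in WT2 and AK5, the pools of each genotype with the lowest acinar, lymphocyte and mesenchyme sums. *Il1b*, the gene of interleukin-1β and mainly a myeloid transcript, had the lowest log2 fold change of the list. It measured 3.82, 1.45 and 2.61 CPM in WT and 0.722, 0.513 and 0.398 CPM in *Akita* pools, with no overlap (log2 fold change -2.17, SE 0.48, adjusted p = 0.0803). The summed macrophage markers were 168 to 285 CPM in WT and 92.2 to 197 CPM in *Akita* pools, and their part in this difference was not tested. *Csf1*, *Cx3cl1* and *Cxcl16*, the other abundant members, had log2 fold changes of -0.08, 0.48 and -0.45 with adjusted p-values of 0.863, 0.265 and 0.607.

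Of 19 cell surface and survival targets 18 were tested, with a median log2 fold change of 0.06 (range -0.62 to 0.60). Of these, 15 were highest in WT1 and AK4 within their genotypes, against 18.3% of all genes tested, again without a test. *Sod2*, which encodes the mitochondrial superoxide dismutase, measured 96.5, 86.5 and 97.9 CPM in WT and 129, 121 and 118 CPM in *Akita* pools. All *Akita* pools were above all WT pools (log2 fold change 0.39, SE 0.078), and the adjusted p of 0.065 was the lowest of all 79 pathway genes. It was 0.0399 with scaling by library totals and 0.044 with the acinar covariate. *Bcl2l1*, the gene of the survival protein BCL-XL, went the other way, at 80.7, 76.5 and 71.5 CPM in WT and 58.4, 50.3 and 61.6 CPM in *Akita* pools. This difference did not pass the test either (log2 fold change -0.43, adjusted p = 0.0821). *Junb*, an AP-1 subunit gene, was at 366, 231 and 289 CPM in WT and 228, 170 and 175 CPM in *Akita* pools, again without overlap (log2 fold change -0.62, adjusted p = 0.148). *B2m* and *Tapbp*, of the class I antigen presentation pathway, were at -0.12 and 0.04. *Il1b*, *Cxcl1*, *Prkcb* and *Bcl2l1* were singled out after their values were seen.

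**Figure D4:**
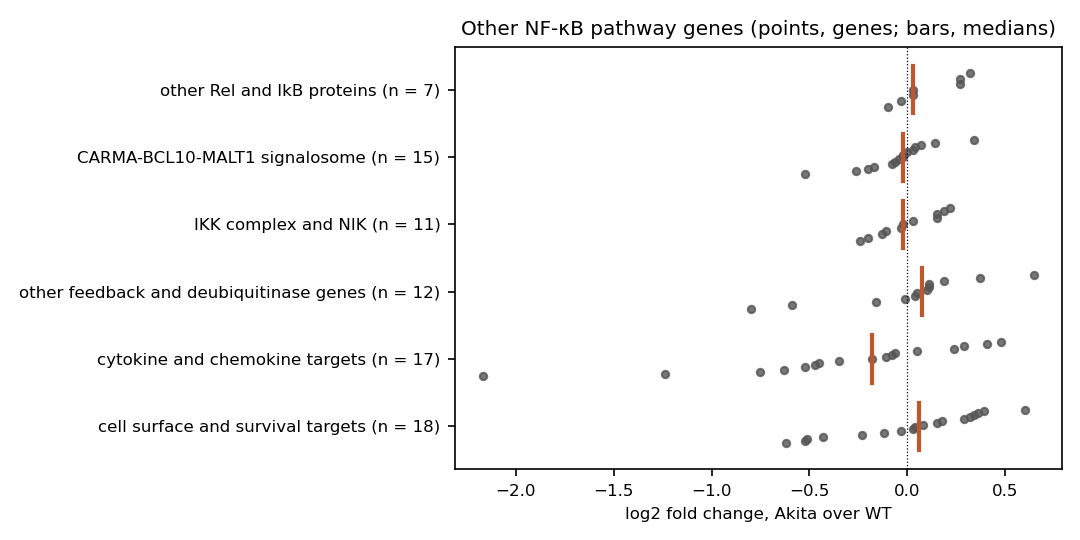
Log2 fold change of *Akita* over WT for the tested genes of 6 lists of the NF-κB pathway, with 1 point per gene, the median of each list as a vertical bar and the number of tested genes in parentheses. The medians lie between -0.18 and 0.08, and the leftmost point is *Il1b* at -2.17.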

How the data were processed

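RNA was counted in 3 WT and 3 *Akita* islet pools (120 ng of total RNA each). The methods of the study and the submitters' notes on processing name cutadapt 1.12 for trimming, STAR 2.5.2b for alignment to GRCm38, HTSeq 0.7.2 for the counts of each gene and DESeq2 1.12.4 for the authors' comparison. No annotation release or strand setting was given in the sources used here. The deposited table holds the authors' raw counts of reads, for 40914 of 47729 genes, with a mark in place of counts for the other 6815. The deposited columns of normalized counts, fold changes and p-values of the authors' own comparison were not used. Column names of the *Akita* libraries run from 4 to 6 and their labels from 1 to 3, so that columns were matched to genotypes only. In 27 genes whose symbol had been turned into a date, the symbol was looked up by the Ensembl identifier. The identifier itself was kept where no symbol was found.

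Raw counts were analysed with limma 3.58.1 in R 4.3.3 (limma-voom, pseudocount 0.5) and with Python 3.11.15. Genes with marks in place of counts were left out, and no count model was fitted to the others. A gene was tested when its level in at least 3 libraries was no lower than that of 10 reads in the library of median size, with a total of at least 15 reads. TMM factors trimmed 30% of log ratios and 5% of levels at each end. The threshold was an adjusted p under 0.05, by the Benjamini–Hochberg method over the 15407 tested genes. Levels are TMM-scaled CPM. The p-values set the genotype difference against the spread between pools of separate mice, which limma moderates with that of all genes tested. Scripts were tested on simulated data. The κB consensus was searched on both strands of RefSeq promoter windows. The members and gene lists were chosen with earlier results of these data known. In each list, genes past the threshold or, where there were none, up to 4 genes with the highest mean CPM were named, besides those said to be named for other reasons. Alternatives were 4 other scalings, 2 other filters, limma-trend, library weights, leaving out each library and an acinar covariate.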

Additional observations from a re-analysis of the deposited data

How the results depend on the processing

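Over 15 alternatives per gene, the log2 fold change of *Card14* was 2.49 to 2.71, and none of the other 9 genes passed the threshold under any of them. Of 135 values of these 9 genes, 16 had the opposite sign of the value reported. Leaving out each library in turn gave -0.30 to 0.03 for *Nfkb1*, -0.72 to -0.02 for *Nfkb2*, -0.10 to 0.10 for *Rela*, -0.25 to 0.28 for *Relb*, 0.07 to 0.40 for *Nfkbia*, -0.47 to 0.15 for *Nfkbie*, -0.26 to 0.28 for *Nfkbiz*, -0.17 to 0.41 for *Tnfaip3* and -0.14 to 0.58 for *Birc3*. Over all alternatives the lowest adjusted p of a member by limma-voom was 0.0979, for *Nfkbia* with the acinar covariate, which was chosen after seeing the data.

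Of all genes tested, 117 were higher and 132 lower as reported. The number past the threshold was 569 with library totals alone, a scaling under which the median of all log2 fold changes shifted by 0.12, and 522 with library quality weights. Without single libraries it ran from 0 (without AK6) to 584 (without AK4), so that the genes called over the whole table depend on single pools. It was 64 without WT1, 7 without WT2, 1 without WT3 and 49 without AK5. Of the 79 other pathway genes 1 passed with library totals alone (*Sod2*, log2 fold change 0.51) and 3 with the acinar covariate (*Sod2* at 0.41, *Il1b* at -2.05 and *Cxcl1* at 1.48). Fits by edgeR and DESeq2 were not run, so that dependence on the use of a count model was not examined. No paired analysis was possible because the *Akita* columns carry the numbers 4 to 6 and share none with the WT columns. With 3 pools per genotype, the width of the intervals limits what can be seen in genes that vary between pools, such as *Nfkb2* and *Birc3*.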
